A study of Mus musculus with 27 samples.

Results

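The comparison set cells at the start of an osteoblast differentiation course (days 2, 4 and 6) against cells at its end (days 14, 16 and 18), to describe which genes, which functions and which secreted or cell surface products were higher on each side. Of the 27 expression profiles of the series, 18 belonged to these days, 3 for each, and the 3 profiles of a day carried 1 barcode and were summed, which gave 3 early and 3 late libraries out of 9. All libraries came from calvarial cells of neonatal mice of the strain C57BL/6J-Col3.6 CFP, 5 to 9 days of age, in which a fragment of the collagen type I promoter drives a cyan fluorescent protein. Calvariae were digested with trypsin and collagenase, the released cells were grown for 4 days, and those that fluoresced were sorted and put back into culture in ascorbic acid and β-glycerol phosphate, with no second sort described. Both groups received the same medium and differed only in the day of collection, so the late libraries also come from older cultures. The promoter fragment is active over much of the osteoblast lineage and in other cells that make type I collagen, so a fluorescent cell need not be an osteoblast. The labels number the 3 profiles of a day as replicates and the study's methods speak of triplicates, but as the profiles of a day share a barcode and differ in lane they are treated here as 1 library, and neither source describes separate cultures for them. A group is then 3 days of 1 course. The spread within a group therefore includes change over its 3 days, and P values measure a difference against that spread, not against the spread between mice or cultures.

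Cells of the osteoblast lineage multiply, then lay down a matrix rich in type I collagen, and later express the genes that let this matrix bind mineral, among them those for osteocalcin (Bglap) and bone sialoprotein (Ibsp). Ascorbic acid is needed for collagen hydroxylation and β-glycerol phosphate is a source of phosphate. The same stromal precursors can form adipocytes, whose programme is driven by Pparg and Cebpa, and preparations of calvarial cells can carry macrophages and other cells of the bone.

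The 6 libraries held 42280444 to 50541939 estimated counts. Levels are given as TPM, a relative abundance of transcripts that corrects for their length, after scaling each profile to its upper quartile, and differences as log2 fold changes of late over early counts with the standard error (SE) of the fit. A gene was called when the edgeR quasi-likelihood test gave a Benjamini-Hochberg adjusted P under 0.05. Mitochondrial ribosomal RNA took 21.4% to 22.1% of the counts early and 22.6% to 24.8% late, so its share moved with the groups, and 7819 of the 7840 calls below were also made with the mitochondrial genes left out. Genes with at least 1 TPM numbered 12323 to 12961 early and 13320 to 13403 late, with 13413 on day 18. Of the genes that define the osteoblast, Col1a1 was at 1526 TPM or more and Runx2 at 42.0 TPM or more in all 6 libraries, while those of the mature cell, Bglap and Ibsp, lay at or below 1.24 TPM in each early library. Estimated counts that are not whole mark reads divided between genes of shared sequence, and of the genes named below they occurred for Actb, Atp5b, Cd34, Cdh11, Cebpb, Csf1r, Ctgf, Fabp5, Fam38a, Fdps, Fn1, Fosl1, Gapdh, Igf2, Igfbp4, Lepr, Lgr5, Loxl2, Loxl3, Lpl, Matn4, Mdm2, Msx2, Myh11, Ncam1, Pcna, Pcolce, Pcp4, Runx2, Sema3e, Sfrp2, Slc20a1, Ube2c and 2010300F17Rik, whose values are less certain.

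Of 15148 genes tested, 7840 were called (51.8%), with 4028 higher late (26.6%) and 3812 lower late (25.2%). Rises were larger than falls: the median log2 fold change was 1.22 among genes higher late and -0.80 among genes lower late, against 0.02 over all genes tested. A change of at least 4 log2 units was seen for 394 genes higher late and for 70 lower late, and one of at least 2 log2 units for 1210 and 448. Protein-coding genes made up 3840 of the rises and 3659 of the falls. The levels of the late libraries all lay above those of the early libraries for 3844 of the genes called higher (32.8% of all genes tested had this order), and all lay below for 3498 of the genes called lower (26.3% of all genes tested). With so many genes called, a list is read below against 26.6% and 25.2%, the shares of all genes tested that rose and fell.

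Genes of cell division were lower late. All 30 tested genes of mitosis fell, with a median log2 fold change of -1.97, and 32 of the 33 tested genes of DNA replication fell, with a median of -1.19 (Rfc3, a subunit of the clamp loader, had log2 -0.57 and edgeR adjusted P = 0.0839). Ube2c, the ubiquitin-conjugating enzyme that works with the anaphase-promoting complex, had 144, 113 and 140.1 TPM early and 32.9, 31.5 and 27.9 TPM late, given here and below in the order of days 2, 4, 6 and 14, 16, 18 (log2 fold change = -2.18, SE = 0.14, edgeR adjusted P = 3.16e-05). For Cdk1, the kinase that starts mitosis, levels were 70.9, 75.9 and 80.5 TPM early and 22.9, 19.0 and 19.0 TPM late (log2 fold change = -2.05, SE = 0.16, edgeR adjusted P = 6.35e-05). The early and late values did not overlap for either gene, and within each group they differed far less than between the groups. Mki67, the Ki-67 proliferation antigen, went from 42.7, 41.4 and 57.4 TPM to 16.2, 15.2 and 13.3 TPM (log2 fold change = -1.73, SE = 0.14, edgeR adjusted P = 8.45e-05). Among replication genes, Rrm2, a subunit of ribonucleotide reductase, fell most, from 145, 87.8 and 83.7 TPM to 18.6, 20.2 and 22.1 TPM (log2 fold change = -2.54, SE = 0.24, edgeR adjusted P = 0.000148), whereas Pcna, the sliding clamp, changed less, from 90.8, 95.7 and 109 TPM to 56.1, 70.3 and 63.0 TPM (log2 fold change = -0.72, SE = 0.11, edgeR adjusted P = 0.00106). In RNA from a whole culture, fewer cells of a kind and less RNA per cell cannot be told apart.

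Promoters of these genes are printed because the 2 lists moved almost as a block. Sequences are the 200 bases before the transcription start in the RefSeq promoter table for GRCm38.p6, written 5′ to 3′ on the strand of the gene, and capitals mark CCAAT, the box bound by the factor NF-Y, and TTTGAA, the core of the cell cycle homology region found before many mitotic genes, on either strand (ATTGG and TTCAAA where reversed). The Ube2c stretch is chr2:164769729-164769928 on the plus strand and the Cdk1 stretch chr10:69352913-69353112 on the minus strand.
Ube2c: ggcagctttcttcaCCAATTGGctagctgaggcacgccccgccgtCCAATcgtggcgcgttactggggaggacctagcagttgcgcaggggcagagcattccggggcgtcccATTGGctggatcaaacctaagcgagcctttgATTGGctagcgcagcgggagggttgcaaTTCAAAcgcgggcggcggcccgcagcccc
Cdk1: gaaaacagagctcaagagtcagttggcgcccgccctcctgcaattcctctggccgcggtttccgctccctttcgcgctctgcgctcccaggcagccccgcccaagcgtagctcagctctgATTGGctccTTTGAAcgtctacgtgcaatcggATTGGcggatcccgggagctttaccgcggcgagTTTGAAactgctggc
Both stretches held CCAAT and TTTGAA. In Ube2c the TTTGAA match lay at -29 to -24 and in Cdk1 the nearer one at -15 to -10, counted back from the base before the start. Over the full window of 300 bases (250 before the start and 50 after it), CCAAT or its reverse was found in 22 of 28 promoters of the mitosis genes that fell (78.6%), against 37.7% of the 12910 promoters of all genes tested. For TTTGAA the shares were 78.6% and 12.0%, and both motifs stood together in 67.9% against 4.90%. Promoters of all genes called lower late held CCAAT in 38.8%, TTTGAA in 14.0% and both in 6.80%. As every tested mitosis gene fell, the high shares describe that list and not falling genes in general. The DNA replication genes that fell had 31 promoters in the table, of which 58.1% held CCAAT, 9.68% TTTGAA and 32.3% TTTGGCG, a form of the site bound by E2F factors (2.35% of promoters of genes tested). Some genes have more than 1 promoter in the table, the 28 and 31 promoters each came from 26 genes, and a match is a match of letters only.

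Genes of the contractile cytoskeleton were also lower late. Of 21 tested, 17 fell and 2 rose (1 without day 4, 14 or 18), with a median log2 fold change of -1.44. Acta2, smooth muscle α-actin, was among the 5 genes of highest mean level that fell, at 5155, 3446 and 2532 TPM early and 992, 853 and 868 TPM late (log2 fold change = -2.12, SE = 0.27, edgeR adjusted P = 0.000608). Its level dropped from day to day within the early group and varied little within the late one. Tagln (transgelin), Actg2 (enteric smooth muscle actin), Cnn1 (calponin) and Myh11 (smooth muscle myosin heavy chain) had log2 fold changes of -2.45, -2.91, -2.85 and -3.07. Against this direction, Mylk, myosin light chain kinase, rose from 10.8, 11.4 and 15.1 TPM to 66.2, 63.2 and 59.2 TPM (log2 fold change = 2.44, SE = 0.13, edgeR adjusted P = 2.21e-05). Actb, cytoplasmic β-actin, and Vim, vimentin, fell as well, from 7145, 4918 and 4919 TPM to 2824, 2551 and 2684 TPM for Actb (log2 -1.21, SE 0.19) and from 3652, 3597 and 3760 TPM to 2343, 2217 and 2037 TPM for Vim (log2 -0.80, SE 0.11).

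Cholesterol synthesis and glycolysis fell as groups of genes. Of 19 tested genes of the cholesterol list, 16 fell and none rose (median log2 fold change -1.01), including Cyp51, the lanosterol demethylase, from 101, 113 and 116 TPM to 51.3, 36.1 and 34.4 TPM (log2 fold change = -1.54, SE = 0.13, edgeR adjusted P = 9.91e-05), and Fdps, farnesyl diphosphate synthase, from 56.3, 57.0 and 75.2 TPM to 19.6, 20.7 and 23.1 TPM (log2 fold change = -1.64, SE = 0.14, edgeR adjusted P = 9.56e-05). The 3 that were not called, Insig1, Ebp and Dhcr7, had log2 values of -0.12, -0.01 and 0.06. Of 20 tested genes of glycolysis, 12 fell and 3 rose (median -0.59). Gapdh had 2640, 2167 and 1944 TPM early and 961, 871 and 892 TPM late (log2 fold change = -1.30, SE = 0.15, edgeR adjusted P = 0.000343) and Ldha, lactate dehydrogenase A, had 1020, 729 and 656 TPM early and 456, 398 and 454 TPM late (log2 fold change = -0.96, SE = 0.20, edgeR adjusted P = 0.00473). The glucose transporter gene Slc2a1 had a log2 fold change of -1.70 (SE = 0.12). One of the 3 that rose, Pdk1, encodes a kinase that keeps pyruvate out of the mitochondrion, and it went from 1.78, 1.94 and 2.78 TPM to 8.50, 9.27 and 8.08 TPM (log2 fold change = 1.97, SE = 0.22, edgeR adjusted P = 0.000293). Nuclear genes of the respiratory chain moved little: 20 of 37 tested fell and none rose, with a median of -0.35. Their largest member by level, Atp5b, the ATP synthase β subunit, had 6387, 5582 and 5260 TPM early and 4359, 3889 and 4315 TPM late (log2 fold change = -0.53, edgeR adjusted P = 0.0136, and 0.0676 without day 16), and 8 to 12 of the respiratory genes fell when day 2, 4, 14 or 18 was left out.

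Cell cycle inhibitors did not move as 1 group. Of 20 tested inhibitors and p53 target genes, 10 fell and 5 rose. Cdkn1a, which encodes the inhibitor p21, had 2368, 2330 and 1989 TPM early and 683, 516 and 634 TPM late (log2 fold change = -1.97, SE = 0.15, edgeR adjusted P = 6.5e-05), and the p53 targets Ccng1 and Mdm2 fell with it (log2 -1.92 and -2.34). In contrast, Cdkn1c, which encodes p57, rose from 4.17, 11.8 and 26.2 TPM to 254, 209.9 and 167 TPM (log2 fold change = 3.86, SE = 0.57, edgeR adjusted P = 0.00108), and Cdkn1b, which encodes p27, from 7.11, 10.6 and 13.0 TPM to 21.3, 23.5 and 21.1 TPM (log2 fold change = 1.03, SE = 0.18, edgeR adjusted P = 0.00219). Cdkn1c rose more than 5-fold within the early days and was lower on day 18 than on day 14.

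**Figure D1:**
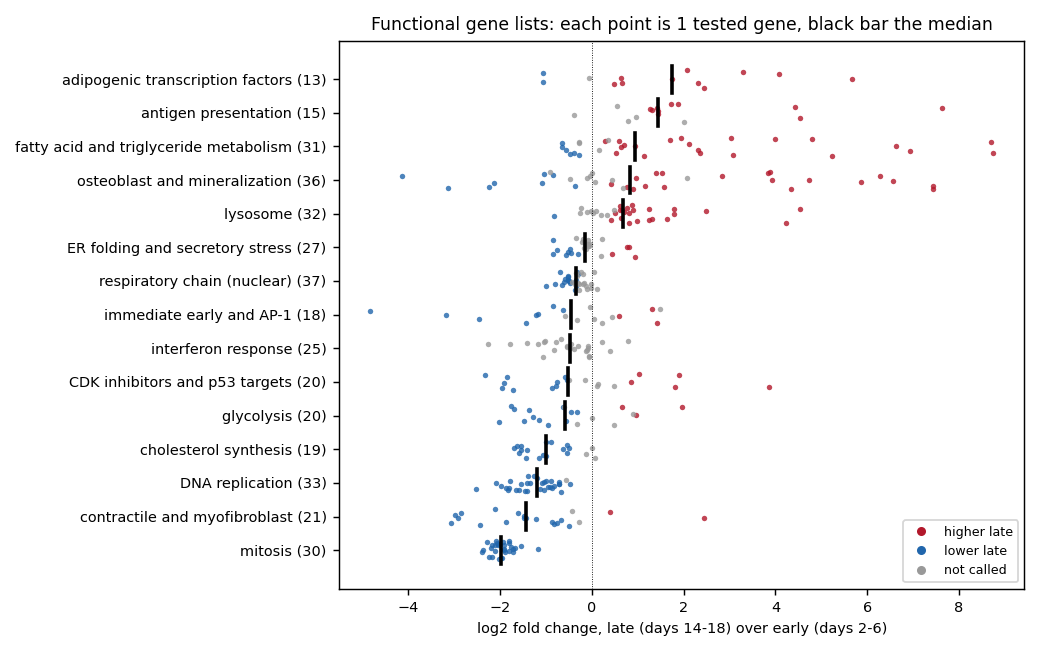
Log2 fold change of late (days 14 to 18) over early (days 2 to 6) libraries for each tested gene of 15 functional lists, with the number of genes tested in parentheses, red for genes called higher late, blue for genes called lower late and grey for genes not called; black bars are medians. All 30 mitosis genes lie below 0, and the adipogenic factors have the highest median.

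The genes that fell most included those for a cyclooxygenase, a chemokine and an AP-1 subunit. By the rule used to name them (at least 10 TPM in the higher group and no overlap between the groups), the 10 largest were those of Ppbp, Ptgs2, Cxcr6, Coch, Gm17311, Crct1, Prl2c3, Ankrd1, 2010300F17Rik and Fosl1, with log2 fold changes from -6.87 to -4.83. Ptgs2 (chr1:151947254-151955140 in NCBIM37) encodes the inducible cyclooxygenase of prostaglandin synthesis and had 362, 240.2 and 90.8 TPM early and 2.42, 2.43 and 1.81 TPM late (log2 fold change = -6.78, SE = 0.56, edgeR adjusted P = 8.83e-05). Ppbp (chr5:91197544-91199086), a chemokine also known as CXCL7, had 40.1, 79.3 and 24.3 TPM early and 0.489, 0.283 and 0.515 TPM late (log2 fold change = -6.87, SE = 0.56, edgeR adjusted P = 8.1e-05). On day 10 they already stood at 3.74 and 0.582 TPM. Fosl1, the AP-1 subunit FRA1, had 55.6, 33.3 and 26.0 TPM early and 1.29, 0.792 and 2.17 TPM late (log2 fold change = -4.83, SE = 0.45, edgeR adjusted P = 0.000146), and Ankrd1, an ankyrin repeat protein of the nucleus and the muscle sarcomere, had 107, 93.3 and 36.1 TPM early and 3.59, 2.53 and 2.30 TPM late (log2 fold change = -4.90, SE = 0.45, edgeR adjusted P = 0.000142). Of the 18 tested immediate early and AP-1 genes, 8 fell and 3 rose (1 without day 14), and Fos had log2 -0.32 (edgeR adjusted P = 0.31). Prl2c3 is 1 of several near-identical proliferin genes, and its value is uncertain.

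Mineralization genes were split. Of 36 tested genes of the osteoblast and of mineralization, 19 rose, 8 fell (5 without day 4, 14 or 16) and 9 were not called, with a median log2 fold change of 0.83. The largest rises were those of late matrix genes. Ibsp had 0.581, 0.0965 and 0.175 TPM early and 18.1, 59.0 and 78.3 TPM late (log2 fold change = 7.43, SE = 0.76, edgeR adjusted P = 0.000223). Bglap, osteocalcin, had 1.24, 0.224 and 0.498 TPM early and 31.4, 143 and 208 TPM late (log2 fold change = 7.44, SE = 0.92, edgeR adjusted P = 0.000494), and its neighbour Bglap2 had 0.795, 1.76 and 2.07 TPM early and 31.0, 163 and 274 TPM late (log2 fold change = 6.56, SE = 0.89, edgeR adjusted P = 0.000775). Late values lay well above the early ones for all 3 genes, but they also rose several-fold between day 14 and day 18, so the late group was not at a plateau. The osteocalcin genes are near-identical copies whose reads are divided between them, so their separate values are uncertain. Phex, a membrane endopeptidase of phosphate handling, had 0.338, 0.476 and 0.675 TPM early and 18.9, 26.7 and 37.2 TPM late (log2 fold change = 6.27, SE = 0.35, edgeR adjusted P = 2.3e-05), and Dmp1, a mineral-binding matrix protein of the osteocyte, had 0.0512, 0.0387 and 0.117 TPM early and 2.21, 5.198 and 6.54 TPM late (log2 fold change = 5.87, SE = 0.56, edgeR adjusted P = 0.000162). Dlx3, a homeobox factor, Ifitm5, a membrane protein of mineralizing osteoblasts, Omd, osteomodulin, and Smpd3, a sphingomyelinase needed for normal mineralization, rose by log2 3.88, 3.83, 4.73 and 2.83.

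The genes that fell included a phosphate transporter, a homeobox factor and the regulators of osteoclast formation. Slc20a1, a sodium-phosphate cotransporter, had 135, 117 and 67.0 TPM early and 5.44, 7.02 and 8.401 TPM late (log2 fold change = -4.15, SE = 0.28, edgeR adjusted P = 3.98e-05). Msx2, a homeobox factor of skull growth, had 129.9, 102 and 94.4 TPM early and 13.4, 12.9 and 12.9 TPM late (log2 fold change = -3.13, SE = 0.16, edgeR adjusted P = 1.97e-05). Spp1, osteopontin, had 402, 979 and 1012 TPM early and 295, 339 and 532 TPM late (log2 fold change = -1.09, SE = 0.35, edgeR adjusted P = 0.0301), with overlap between the groups. Tnfrsf11b, osteoprotegerin, the decoy receptor that blocks osteoclast formation, and its ligand Tnfsf11 (RANKL) both fell (log2 -2.14, SE 0.46 and log2 -1.04, SE 0.31).

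For 3 early markers of the lineage, the result changed when 1 library was left out. Runx2, the master factor of the osteoblast, had 46.4, 42.0 and 45.2 TPM early and 63.5, 58.0 and 62.0 TPM late (log2 fold change = 0.42, SE = 0.11, edgeR adjusted P = 0.0156), but its adjusted P was 0.0659 without day 4 and 0.0589 without day 14. Sp7, osterix, had 32.3, 5.18 and 3.50 TPM early and 6.66, 7.56 and 10.6 TPM late and was not called (log2 -0.92, edgeR adjusted P = 0.359). Without day 2, where it was highest, its log2 fold change was 0.86 (SE = 0.28, edgeR adjusted P = 0.0343). Alpl, tissue-nonspecific alkaline phosphatase, had 9.13, 0.857 and 0.467 TPM early and 13.3, 16.2 and 17.6 TPM late (log2 2.07, edgeR adjusted P = 0.103), and 4.62 (SE = 0.25, edgeR adjusted P = 9.31e-06) without day 2. With all 6 libraries, Alpl was also called by limma on log2 TPM (log2 2.46, adjusted P = 0.0216). It passed in edgeR with the 18 profiles as separate samples too (adjusted P = 0.00139, and 0.003 with the replicate block). Those 2 fits treat lanes of 1 library as samples, so their P values overstate the replication. Day 2 thus held most of the early Sp7 and Alpl signal. Of the 6 osteocyte markers, Phex and Dmp1 rose as given above, and Pdpn, podoplanin, fell from 126, 236 and 210.3 TPM to 118, 111 and 118 TPM (log2 fold change = -0.83, SE = 0.18, edgeR adjusted P = 0.0067). Mepe, Sost and Fgf23 were at or below 0.113 TPM in all 6 libraries and were not tested. Pdpn made up most of the osteocyte sum, which was 126 to 237 TPM early and 139.6 to 161.5 TPM late.

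The 200 bases before the start of Bglap, chr3:88384467-88384666 on the minus strand of GRCm38.p6, are printed for the gene with the largest rise of the mineralization list, with TGTGGT, the core bound by RUNX factors, in capitals (ACCACA where reversed).
Bglap: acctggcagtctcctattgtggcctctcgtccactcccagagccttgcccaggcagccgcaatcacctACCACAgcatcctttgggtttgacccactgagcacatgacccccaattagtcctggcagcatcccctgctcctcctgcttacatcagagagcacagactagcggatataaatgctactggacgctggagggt
The match lay at -132 to -127. Within the windows of 300 bases, TGTGGT was found in 5 of 15 promoters (13 genes) of the osteoblast and mineralization genes that rose (33.3%), against 12.3% of promoters of all genes tested. The share was 12.7% for all genes called higher late. It was also above 12.3% in lists that fell, at 19.4% for DNA replication and 17.9% for mitosis, so the motif was not particular to the rising list. The 200 bases before Ibsp held no such match.

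Fat cell genes were among the largest rises. The 10 largest by the same rule were those of Adipoq, Car3, Cidec, Apoc1, Plin1, Mup10, Pcp4, Cfd, Scg2 and Gm11428, with log2 fold changes of 9.12 down to 8.05. Adipoq (chr16:23146609-23158101 in NCBIM37), the adipocyte hormone adiponectin, had 0.204, 0.244 and 0.162 TPM early and 39.6, 74.7 and 92.0 TPM late (log2 fold change = 9.12, SE = 0.47, edgeR adjusted P = 2.2e-05). Cfd, the protease adipsin (complement factor D), had 0.108, 0 and 0.0518 TPM early and 7.71, 28.1 and 35.1 TPM late (log2 fold change = 8.54, SE = 0.88, edgeR adjusted P = 0.000223), and Plin1, perilipin, which coats the lipid droplet, had 0.0637, 0.0838 and 0.0584 TPM early and 20.1, 28.1 and 46.9 TPM late (log2 fold change = 8.69, SE = 0.47, edgeR adjusted P = 2.21e-05). Each was close to 0 in every early library and rose further from day 14 to day 18. Car3, a carbonic anhydrase abundant in fat and muscle, reached 150.3, 256 and 437 TPM late from 0.805, 0.702 and 0.306 TPM early (log2 fold change = 8.79, SE = 0.55, edgeR adjusted P = 3.35e-05). Scg2 encodes secretogranin II, a granule protein of secretory cells, and had 0.217, 0.129 and 0.182 TPM early and 35.5, 52.2 and 81.7 TPM late (log2 fold change = 8.27, SE = 0.42, edgeR adjusted P = 2.13e-05). Mup10 belongs to a family of near-identical genes, and its value is uncertain.

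The regulators and enzymes of fat storage moved with these markers, while 3 genes of fatty acid synthesis fell by counts, 1 of them (Acaca) against its TPM. Of 13 tested adipogenic transcription factors, 10 rose and 2 fell (1 without any 1 of days 2, 4, 14, 16 and 18; median 1.75): Pparg had 5.15, 2.04 and 1.88 TPM early and 28.6, 31.6 and 35.1 TPM late (log2 fold change = 3.29, SE = 0.40, edgeR adjusted P = 0.000479) and Cebpa had 1.30, 1.09 and 1.23 TPM early and 18.0, 22.3 and 23.4 TPM late (log2 fold change = 4.07, SE = 0.17, edgeR adjusted P = 1.57e-05), whereas the early-acting factors Cebpb and Cebpd had log2 fold changes of -1.07 and -1.07. Of 31 tested genes of fatty acid and triglyceride metabolism, 21 rose and 6 fell (median 0.94). Lpl, lipoprotein lipase, had 10.5, 8.95 and 8.76 TPM early and 317, 375 and 505 TPM late (log2 fold change = 5.23, SE = 0.25, edgeR adjusted P = 1.93e-05), and Fabp4, a fatty acid carrier, had 1.92, 1.58 and 1.06 TPM early and 91.5, 189 and 198 TPM late (log2 fold change = 6.63, SE = 0.40, edgeR adjusted P = 3.03e-05). The 6 that fell were Plin2, Fasn, Acly, Fabp5, Me1 and Acaca, of which Fasn, fatty acid synthase, Acly, ATP-citrate lyase, and Acaca, acetyl-CoA carboxylase, make fatty acids from citrate. For Acaca the mean level went from 34.6 to 74.6 TPM, against its counts (log2 -0.29), so its direction is uncertain. Fasn had 42.4, 37.9 and 36.2 TPM early and 24.5, 26.9 and 26.1 TPM late (log2 fold change = -0.65, SE = 0.11, edgeR adjusted P = 0.00194). Without day 4, without day 14 or with limma, 3 genes of the list fell.

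Macrophage genes rose late. Of the 7 markers, 6 rose, and Cd14 had 0.820, 1.26 and 0.657 TPM early and 1.24, 0.785 and 2.76 TPM late (log2 0.73, edgeR adjusted P = 0.286). Lyz2, lysozyme, carried most of the sum, with 19.9, 31.6 and 56.0 TPM early and 485, 813 and 1855 TPM late (log2 fold change = 4.83, SE = 0.59, edgeR adjusted P = 0.00049); a near-identical neighbour, Lyz1, can share its reads. Csf1r, the receptor for macrophage colony-stimulating factor, had 1.38, 0.804 and 0.805 TPM early and 3.67, 7.04 and 14.9 TPM late (log2 fold change = 3.00, SE = 0.51, edgeR adjusted P = 0.00196), Cd68, a phagocyte lysosomal protein, had 1.79, 2.05 and 3.71 TPM early and 26.4, 43.9 and 114 TPM late (log2 fold change = 4.63, SE = 0.66, edgeR adjusted P = 0.000955) and Ptprc, the leukocyte antigen CD45, had 0.0576, 0.0774 and 0.0845 TPM early and 0.571, 0.750 and 2.23 TPM late (log2 fold change = 3.87, SE = 0.62, edgeR adjusted P = 0.00156). Their highest level was on day 18, which was more than 2 times day 14 for each of these 4 genes, so the late group held a wide spread. The summed TPM of the 7 markers ran from 24.1 to 61.7 early and was 522, 877 and 2014 on days 14, 16 and 18.

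Lysosomal and antigen presentation genes were higher late. Of 32 tested lysosomal genes, 22 rose and 1 fell (3 without day 2; median 0.68). Ctsk, the collagen-degrading cathepsin of osteoclasts and fibroblasts, had 36.5, 61.8 and 83.7 TPM early and 192, 199.6 and 193 TPM late (log2 fold change = 1.63, SE = 0.24, edgeR adjusted P = 0.0011) and Gm2a, a ganglioside activator protein, had 5.51, 7.51 and 9.85 TPM early and 39.3, 42.8 and 51.0 TPM late (log2 fold change = 2.48, SE = 0.20, edgeR adjusted P = 7.68e-05). Of 15 tested antigen presentation genes, 10 rose and none fell (median 1.43). B2m, the light chain of class I molecules, had 874, 1040 and 1833 TPM early and 3085, 3169 and 3163 TPM late (log2 fold change = 1.27, SE = 0.24, edgeR adjusted P = 0.00329), and the class II genes Cd74 and H2-Aa had log2 fold changes of 4.42 and 7.63. On days 14, 16 and 18 the lysosomal list summed to 5888, 6003 and 6394 TPM and the antigen presentation list to 3639, 3777 and 3788 TPM. B2m made up most of the antigen presentation sum, so that sum says little of the class II genes. The part of macrophage RNA in the rises of both lists was not tested.

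No gene of the interferon response was called: of 25 tested genes, none passed and none had an unadjusted P under 0.05 with edgeR, 1 was called with DESeq2 and none of 22 with limma. Isg15, an interferon-induced ubiquitin-like protein, had 4.97, 34.8 and 211 TPM early and 34.0, 13.53 and 26.6 TPM late (log2 -1.79, SE = 1.04), so day 6 stood far above days 2 and 4. Without day 2, 9 of these genes were called lower late, and without day 6, 5 were called higher late.

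Markers of other cells changed unequally. Summed TPM of the 5 adipocyte markers ran from 3.21 to 7.44 early and from 188 to 407 late. The 5 smooth muscle markers summed to 5433, 3663 and 2675 TPM early and to 890 to 1032 TPM late, and all 5 fell. The 6 osteoblast markers summed to 1616 to 2417 TPM early and 3615 to 4640 TPM late, of which Col1a1 made up most. For the osteoclast, Acp5 and Ctsk rose, Oscar was not called, and the defining genes Calcr and Tm7sf4 (the older name of Dcstamp) were at 0 in all 6 libraries. The 6 endothelial markers summed to 3.24 to 4.10 TPM early and 8.87 to 12.05 TPM late. Of these, Tek and Cdh5 rose (log2 2.32 and 1.40), Kdr was not called (log2 -2.88), and Pecam1, Emcn and Tie1 were at or below 0.339 TPM and were not tested. Of 5 tested chondrocyte markers, 3 rose and 1, Col2a1, fell. The 6 chondrocyte markers summed to 106 to 129 TPM early and 101 to 129 TPM late. The 4 erythroid markers stayed at or below a sum of 1.93 TPM. Of the 5 mast cell markers only Kit was tested, and it rose (log2 5.97), while Cpa3 had no count early. The 5 stayed low, with sums of 0 to 0.071 TPM early and 1.39 to 1.76 TPM late. Of the 4 Schwann cell genes, 2 were tested and both rose, S100b by log2 3.23 and the other by log2 1.81. The 4 summed to 2.98 to 6.42 TPM early and 39.2 to 49.2 TPM late, while Sox10 stayed at or below 0.157 TPM and was not tested. The part of these cells in the changes of other genes was not tested.

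**Figure D2:**
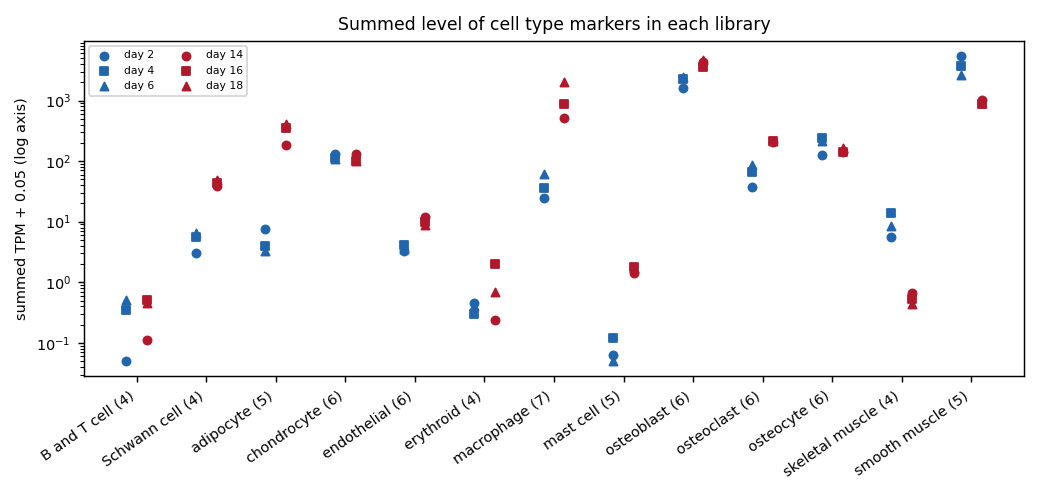
Summed TPM (log axis, 0.05 added) of the markers of 13 cell types in each early (blue) and late (red) library, 1 point per library, with the number of markers in parentheses. Macrophage, adipocyte, osteoblast, osteoclast, endothelial, Schwann cell and mast cell sums are higher in every late library, and smooth muscle and skeletal muscle sums are lower. Ctsk makes up most of the osteoclast sum. Only 1 of the 4 skeletal muscle markers and 1 of the 5 mast cell markers were tested, and the mast cell sum is at most 1.76 TPM.

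Secreted products leaned towards the late side. Of 381 genes on the secreted lists, 339 were tested, and 181 rose (53.4%, against 26.6% of all genes tested), 74 fell (21.8%, against 25.2%) and 84 were not called, with a median log2 fold change of 1.04. Their summed level was 42070 to 50480 TPM early and 96470 to 107100 TPM late. By level, Sparc, osteonectin, a collagen-binding glycoprotein, led with 8026, 9818 and 11450 TPM early and 22580, 21780 and 27450 TPM late (log2 fold change = 1.15, SE = 0.17, edgeR adjusted P = 0.00118). Ptn, pleiotrophin, a heparin-binding growth factor, had 85.3, 136 and 432 TPM early and 7312, 6383 and 5393 TPM late (log2 fold change = 4.79, SE = 0.59, edgeR adjusted P = 0.000495). Both were abundant late, but Sparc started high while Ptn rose steeply over the early days and fell from day 14 to day 18.

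Most collagens and small proteoglycans rose. Of 28 collagens, 18 rose and 3 fell (median 1.31). Col1a1 and Col1a2, the chains of type I collagen, had 1526, 2237 and 2368 TPM early and 4249, 3331 and 4263 TPM late (log2 fold change = 0.89, SE = 0.19, edgeR adjusted P = 0.00625) and 983, 1499 and 1850 TPM early and 3952, 3658 and 4114 TPM late (log2 fold change = 1.39, SE = 0.22, edgeR adjusted P = 0.00145). Col3a1, type III collagen, had 160.1, 555 and 716 TPM early and 1419, 1397 and 1480 TPM late (log2 fold change = 1.54, SE = 0.44, edgeR adjusted P = 0.02). Col14a1, a fibril-associated chain, and Col15a1 rose more, with log2 fold changes of 5.76 and 6.17, from levels of 1.17, 2.12 and 5.36 TPM and 0.767, 0.746 and 1.55 TPM early. Those that fell were Col7a1 of anchoring fibrils (log2 -3.81, SE 0.38), Col4a5 of basement membranes (log2 -1.90, SE 0.20) and Col2a1 of cartilage (log2 -0.90, SE 0.22).

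Among 72 other matrix genes, 39 rose and 11 fell (7 without day 18; median 1.06). The small leucine-rich proteoglycans Dcn (decorin), Ogn (osteoglycin) and Lum (lumican), which bind collagen fibrils, had 45.5, 134 and 299 TPM early and 2420, 2356 and 2652 TPM late (log2 3.92, SE 0.59), 48.1, 62.3 and 106 TPM early and 1196, 1392 and 1375 TPM late (log2 4.14, SE 0.28) and 25.8, 141 and 309 TPM early and 1142, 1126 and 1295 TPM late (log2 2.87, SE 0.71). Bgn, biglycan, of the same family, was already high early and rose less, from 1946, 2124 and 2425 TPM to 3580, 3195 and 3548 TPM (log2 0.60, SE 0.13). Postn, periostin, had 83.1, 143 and 347 TPM early and 1747, 1601 and 1383 TPM late (log2 3.04, SE 0.46). Eln, elastin, went from 2.54, 1.04 and 1.84 TPM to 85.7, 67.8 and 71.9 TPM (log2 5.30, SE 0.32), and Matn4, matrilin 4, from 0.524, 0.850 and 1.58 TPM to 82.1, 91.9 and 75.7 TPM (log2 fold change = 6.31, SE = 0.36, edgeR adjusted P = 2.54e-05).

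Fibronectin and thrombospondin 1 were among the matrix genes that fell. Fn1, fibronectin, had 898, 1809 and 1968 TPM early and 778, 641 and 548 TPM late (log2 fold change = -1.31, SE = 0.28, edgeR adjusted P = 0.00567) and Thbs1, thrombospondin 1, had 2095, 2039 and 1515 TPM early and 972, 814 and 819.9 TPM late (log2 fold change = -1.19, SE = 0.18, edgeR adjusted P = 0.00136). Fn1 was highest on day 6 and lower on every late day than on any early one. Tnn, tenascin N, had 40.4, 10.0 and 1.56 TPM early and 1.39, 1.65 and 1.35 TPM late (log2 fold change = -3.65, SE = 0.99, edgeR adjusted P = 0.0159), with day 6 inside the late range, and its adjusted P was 0.0583 to 0.0615 without day 14, 16 or 18 and 0.089 with limma.

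Of 48 tested matrix enzymes and inhibitors, 26 rose and 9 fell (median 0.72). Timp1, an inhibitor of metalloproteinases, had 1613, 1512 and 1183 TPM early and 329, 374 and 383 TPM late (log2 fold change = -2.05, SE = 0.16, edgeR adjusted P = 6.5e-05), with no overlap between the groups. Rising members included Cst3, the cathepsin inhibitor cystatin C, with 173, 196 and 284 TPM early and 1582, 1992 and 1903 TPM late (log2 fold change = 3.01, SE = 0.19, edgeR adjusted P = 3.4e-05), and Pcolce, an enhancer of procollagen cleavage, with 288, 425 and 579.9 TPM early and 1437, 1370 and 1516 TPM late (log2 fold change = 1.70, SE = 0.22, edgeR adjusted P = 0.000642). The lysyl oxidase-like genes Loxl2, Loxl3 and Loxl4 fell (log2 -1.94, -1.45 and -1.90), and Lox had log2 -0.47 (edgeR adjusted P = 0.0646).

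Secreted regulators of Wnt signalling changed in both directions. Of 20 tested Wnt ligands and modulators, 11 rose and 5 fell (3 without day 16; median 0.90). Sfrp2 (chr3:83570243-83578238 in NCBIM37), a secreted Wnt-binding protein, had 20.1, 24.5 and 49.3 TPM early and 4439, 4253 and 5024 TPM late (log2 fold change = 7.14, SE = 0.39, edgeR adjusted P = 2.3e-05), and Sfrp1 had 25.9, 52.4 and 106 TPM early and 834, 923 and 885 TPM late (log2 fold change = 3.79, SE = 0.45, edgeR adjusted P = 0.000437). Rspo3, an R-spondin that raises Wnt signalling, had 8.09, 12.6 and 24.5 TPM early and 253, 267 and 231 TPM late (log2 fold change = 4.00, SE = 0.36, edgeR adjusted P = 0.000128). Dkk1, an antagonist, rose from a low level (0.0827, 0.0321 and 0.0194 TPM to 0.367, 1.05 and 1.47 TPM, log2 4.34, SE 0.77), while Wif1 and the ligand Wnt10b fell (log2 -2.25, SE 0.49 and log2 -4.28, SE 1.00). For the ligand Wnt16, counts and TPM differed: the count-based log2 fold change was 3.26 (SE = 0.31, edgeR adjusted P = 0.00016), but its level was 18.6, 0.380 and 1.03 TPM early and 6.55, 13.7 and 6.27 TPM late, with day 2 above every late day.

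In the BMP, TGF-β and activin family, 15 of 31 tested genes rose and 6 fell (median 0.57). Bmp4 had 19.1, 24.3 and 30.1 TPM early and 178, 150 and 164 TPM late (log2 fold change = 2.69, SE = 0.15, edgeR adjusted P = 2.3e-05), Gdf10, also called BMP3b, had 2.03, 1.94 and 4.37 TPM early and 62.8, 79.4 and 99.8 TPM late (log2 fold change = 4.80, SE = 0.34, edgeR adjusted P = 5.2e-05) and the BMP antagonist Chrdl1, chordin-like 1, had 1.23, 1.97 and 7.66 TPM early and 238, 238 and 285 TPM late (log2 fold change = 6.08, SE = 0.65, edgeR adjusted P = 0.000257). The activin chains went the other way: Inhba had 1211, 801 and 373 TPM early and 219, 171 and 204 TPM late (log2 fold change = -2.09, SE = 0.39, edgeR adjusted P = 0.00322) and Inhbb had 42.8, 55.9 and 27.7 TPM early and 1.64, 1.69 and 2.29 TPM late (log2 fold change = -4.56, SE = 0.30, edgeR adjusted P = 3.75e-05). Of the 12 genes of the insulin-like growth factor system, 10 rose and 1 fell (median 1.88). Igf1 had 108, 210 and 329 TPM early and 1177, 1045 and 1206 TPM late (log2 fold change = 2.70, SE = 0.35, edgeR adjusted P = 0.000603), Igf2 had 1048, 747 and 705 TPM early and 3655, 3125 and 3368 TPM late (log2 fold change = 1.93, SE = 0.20, edgeR adjusted P = 0.000256) and the binding proteins Igfbp3, Igfbp4 and Igfbp5 had log2 fold changes of 4.11, 3.12 and 4.00. The 1 that fell, Pappa, encodes a protease that cleaves binding proteins (log2 -0.87, SE 0.22).

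FGF, EGF, PDGF, HGF and VEGF ligands and related factors were divided, with 15 of 33 rising and 12 falling (median -0.21). The EGF receptor ligands Ereg (epiregulin) and Hbegf fell, from 30.8, 23.7 and 12.3 TPM to 1.195, 1.10 and 1.52 TPM for Ereg (log2 fold change = -4.21, SE = 0.37, edgeR adjusted P = 0.000108) and from 55.7, 27.1 and 13.49 TPM to 3.13, 2.87 and 3.25 TPM for Hbegf (log2 fold change = -3.47, SE = 0.50, edgeR adjusted P = 0.000971). So did Ctgf and Cyr61, matricellular proteins of the CCN family (log2 -2.43, SE 0.46 and log2 -2.07, SE 0.33), while Nov, another member of that family, rose from 11.7, 12.7 and 27.9 TPM to 581, 579 and 526 TPM (log2 fold change = 4.95, SE = 0.34, edgeR adjusted P = 4.5e-05). Mdk, midkine, the relative of Ptn, rose from 32.6, 45.4 and 84.8 TPM to 548, 568 and 484 TPM (log2 fold change = 3.24, SE = 0.31, edgeR adjusted P = 0.000155). Vegfa, the main endothelial growth factor, had 80.6, 76.7 and 57.6 TPM early and 41.8, 33.8 and 38.5 TPM late (log2 fold change = -1.13, SE = 0.16, edgeR adjusted P = 0.000811).

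Nerve-directed factors were divided as well. Of 18 tested axon guidance and neurotrophic genes, 7 rose and 6 fell. The neurotrophins Bdnf and Ntf3 and the factor Gdnf fell (log2 -2.15, -3.80 and -2.89). Sema3e, a class 3 semaphorin, had 26.0, 27.9 and 16.2 TPM early and 1.07, 0.934 and 0.697 TPM late (log2 fold change = -4.62, SE = 0.29, edgeR adjusted P = 3.16e-05). Rising members included Slit3, a guidance cue, with 39.7, 62.1 and 81.3 TPM early and 204, 184 and 199 TPM late (log2 fold change = 1.68, SE = 0.21, edgeR adjusted P = 0.00052).

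Chemokines moved in both directions, and most complement genes rose. Of 22 tested chemokines, 10 rose and 8 fell. Ccl7 and Ccl2, which attract monocytes, had 130, 172 and 152 TPM early and 16.6, 24.0 and 18.9 TPM late (log2 fold change = -2.997, SE = 0.17, edgeR adjusted P = 2.3e-05) and 77.1, 68.4 and 92.7 TPM early and 10.0, 13.0 and 17.7 TPM late (log2 fold change = -2.61, SE = 0.22, edgeR adjusted P = 0.000103). In the other direction, Cxcl12, which holds haematopoietic cells in marrow, had 23.6, 51.8 and 97.8 TPM early and 537, 676 and 663 TPM late (log2 fold change = 3.21, SE = 0.45, edgeR adjusted P = 0.000831). Of 20 tested complement genes, 16 rose (median 2.78) and 1, Masp1, fell (2 genes without day 4, 14, 16 or 18) from 94.3, 119 and 119 TPM to 16.7, 12.7 and 16.9 TPM (log2 fold change = -2.90, SE = 0.15, edgeR adjusted P = 1.97e-05). C3, the central component, had 0.835, 1.17 and 1.58 TPM early and 49.5, 48.7 and 67.7 TPM late (log2 fold change = 6.90, SE = 0.30, edgeR adjusted P = 1.65e-05) and Serping1, the inhibitor of C1, had 24.7, 35.01 and 60.5 TPM early and 567, 629 and 757 TPM late (log2 fold change = 3.94, SE = 0.31, edgeR adjusted P = 7.62e-05), whereas the C1q chains, made mainly by macrophages, had log2 fold changes of 5.82, 5.35 and 6.02.

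Of 36 tested cytokines and hormones, 15 rose and 12 fell (median 0.84). Csf1, the growth factor of macrophages, fell while macrophage markers rose: it had 848, 550 and 375 TPM early and 215, 192 and 215 TPM late (log2 fold change = -1.61, SE = 0.30, edgeR adjusted P = 0.00289). Il6, Il11 and Lif, cytokines that signal through the same receptor chain, fell (log2 -2.68, -3.49 and -3.48). Apoe, apolipoprotein E, had 2.997, 4.55 and 7.58 TPM early and 86.9, 140.1 and 189 TPM late (log2 fold change = 4.72, SE = 0.39, edgeR adjusted P = 8.83e-05), Penk, proenkephalin, had 3.005, 3.98 and 11.6 TPM early and 238, 252 and 229 TPM late (log2 fold change = 5.24, SE = 0.46, edgeR adjusted P = 0.000111) and Il33, an alarmin, had 0.671, 4.52 and 10.2 TPM early and 55.2, 68.0 and 74.4 TPM late (log2 fold change = 3.71, SE = 0.72, edgeR adjusted P = 0.00375). The gene of its receptor, Il1rl1, moved the other way and is described with the surface products.

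Among listed and named genes, 5 had no count in any early library and more than 30 late, so that only a lower bound of the change can be given, with the early group set at 3 counts per library. Late counts were 67, 43 and 158 for Ccl3, a macrophage chemokine (at least 27.9-fold higher late), 37, 73 and 54 for Apoc1, an apolipoprotein (at least 16.5-fold), and 7, 53 and 58 for Lep, leptin, a fat cell hormone (at least 11.9-fold). For the mast cell carboxypeptidase Cpa3 they were 30, 5 and 14 (at least 5.10-fold) and for Cd86, a costimulatory molecule, 6, 8 and 26 (at least 4.14-fold). Bounds cover counting error only, and Lep, Cpa3 and Cd86 were too low to be tested.

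**Figure D3:**
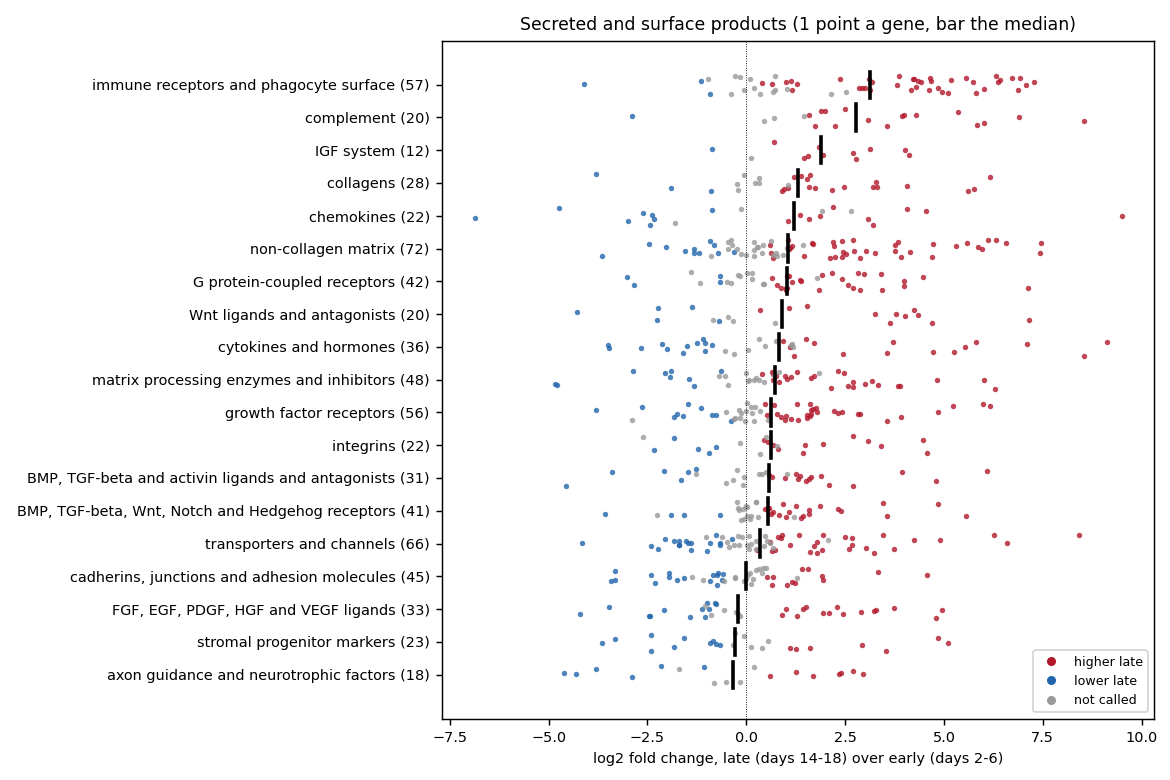
Log2 fold change of late over early libraries for each tested gene of 11 secreted and 8 surface lists, with the number tested in parentheses, red for genes called higher late, blue for genes called lower late and grey for genes not called; black bars are medians. Immune receptors, complement and the IGF system have the highest medians, 3.14, 2.78 and 1.88.

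Surface products leaned the same way, with 173 of 340 tested genes (of 373 listed) higher late (50.9%), 63 lower late (18.5%) and 104 not called, and a median log2 fold change of 0.64. Immune and phagocyte receptors were the most one-sided list: 40 of 57 rose and 3 fell, with a median of 3.14. Cd36, a scavenger receptor of both fat cells and macrophages, had 0.198, 0.212 and 0.221 TPM early and 15.8, 27.2 and 35.4 TPM late (log2 fold change = 6.93, SE = 0.36, edgeR adjusted P = 2.2e-05). The macrophage mannose receptor Mrc1 had 0.332, 0.219 and 0.643 TPM early and 9.46, 15.8 and 34.3 TPM late (log2 fold change = 5.56, SE = 0.60, edgeR adjusted P = 0.000273), and the adaptors Tyrobp and Fcer1g, which couple myeloid receptors to kinases, had 0, 0.625 and 0.729 TPM early and 14.0, 20.3 and 46.4 TPM late (log2 fold change = 5.81, SE = 0.78, edgeR adjusted P = 0.00074) and 0.945, 1.44 and 3.66 TPM early and 37.1, 57.5 and 119 TPM late (log2 fold change = 5.17, SE = 0.65, edgeR adjusted P = 0.000534). These genes were highest on day 18, as the macrophage markers were. Cd200, a ligand that restrains myeloid cells, had 2.27, 1.38 and 4.09 TPM early and 70.5, 97.8 and 139 TPM late (log2 fold change = 5.09, SE = 0.57, edgeR adjusted P = 0.000309).

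Of the 3 that fell, Il1rl1, the IL-33 receptor ST2, had 52.1, 124 and 90.9 TPM early and 5.29, 7.99 and 4.75 TPM late (log2 fold change = -4.11, SE = 0.34, edgeR adjusted P = 8.83e-05), and Osmr, the oncostatin M receptor, and Il13ra1, an IL-13 receptor chain, had log2 fold changes of -1.15 and -0.91.

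Receptors for growth factors and morphogens were mostly higher late. Of 56 tested growth factor receptors and guidance receptors, 30 rose and 10 fell (median 0.63), and of 41 receptors of the BMP, TGF-β, Wnt, Notch and Hedgehog pathways, 21 rose and 4 fell (median 0.54). Ntrk2 and Ntrk3, receptors for BDNF and neurotrophin 3, had 0.205, 0.116 and 0.435 TPM early and 15.1, 17.5 and 24.3 TPM late (log2 fold change = 6.17, SE = 0.43, edgeR adjusted P = 4.5e-05) and 0.243, 0.502 and 0.292 TPM early and 15.6, 13.7 and 10.5 TPM late (log2 fold change = 5.23, SE = 0.29, edgeR adjusted P = 2.3e-05), so that receptors rose where the ligand genes Bdnf and Ntf3 fell (log2 -2.15 and -3.80). Lgr5, an R-spondin receptor, had 0.646, 1.84 and 5.58 TPM early and 114, 116 and 150.5 TPM late (log2 fold change = 5.55, SE = 0.70, edgeR adjusted P = 0.000558), and Fzd4, a Wnt receptor, had 3.98, 3.09 and 3.88 TPM early and 38.0, 46.4 and 42.0 TPM late (log2 fold change = 3.46, SE = 0.14, edgeR adjusted P = 1.61e-05). Pdgfra, a PDGF receptor of stromal cells, had 18.8, 31.3 and 42.7 TPM early and 90.1, 99.4 and 103 TPM late (log2 fold change = 1.60, SE = 0.24, edgeR adjusted P = 0.00127). Egfr rose while its ligands Ereg and Hbegf fell, from 22.2, 27.1 and 37.7 TPM to 86.9, 86.9 and 87.0 TPM (log2 fold change = 1.53, SE = 0.16, edgeR adjusted P = 0.000224).

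Receptors that fell included Bmpr1b, a type I BMP receptor (log2 -3.57, SE 0.31), Axl, a receptor tyrosine kinase (log2 -1.59, SE 0.18), Igf1r, the IGF receptor (log2 -1.47, SE 0.15), and Tnfrsf12a, the TWEAK receptor. Tnfrsf12a had 99.0, 81.2 and 63.8 TPM early and 14.6, 14.5 and 12.7 TPM late (log2 fold change = -2.63, SE = 0.21, edgeR adjusted P = 7.22e-05), Unc5b, a netrin receptor, had 68.7, 31.6 and 31.2 TPM early and 14.3, 12.9 and 11.8 TPM late (log2 fold change = -1.83, SE = 0.32, edgeR adjusted P = 0.0024) and Epha2, an ephrin receptor, had 21.2, 14.4 and 11.2 TPM early and 4.16, 6.80 and 4.50 TPM late (log2 fold change = -1.76, SE = 0.26, edgeR adjusted P = 0.00114). Of 42 tested G protein-coupled receptors, 26 rose and 4 fell (7 without day 2; median 1.04). Agtr2, an angiotensin receptor, had 2.26, 13.0 and 28.8 TPM early and 180.3, 139.9 and 104 TPM late (log2 fold change = 2.88, SE = 0.77, edgeR adjusted P = 0.0148) and Ednra, the endothelin A receptor, had 6.17, 12.7 and 21.8 TPM early and 85.4, 73.8 and 89.7 TPM late (log2 fold change = 2.56, SE = 0.38, edgeR adjusted P = 0.00107).

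Adhesion molecules showed no lean, with 12 of 45 tested cadherins, junction and adhesion genes higher and 16 lower (median 0.00). Cd44, the hyaluronan receptor, had 807, 799 and 559 TPM early and 81.0, 72.3 and 73.2 TPM late (log2 fold change = -3.33, SE = 0.19, edgeR adjusted P = 2.59e-05), and Ncam1, a neural cell adhesion molecule, had 194, 148 and 92.0 TPM early and 35.7, 30.01 and 47.5 TPM late (log2 fold change = -1.95, SE = 0.17, edgeR adjusted P = 0.000113). Cdh11, osteoblast cadherin, had 208, 234 and 339 TPM early and 1114, 969 and 1029 TPM late (log2 fold change = 1.93, SE = 0.18, edgeR adjusted P = 0.000152). Of 22 integrins, 12 rose and 5 fell. The fibronectin receptor chains Itga5 and Itgb1 fell, from 138, 106 and 79.0 TPM to 34.9, 27.7 and 33.0 TPM (log2 fold change = -1.83, SE = 0.22, edgeR adjusted P = 0.000468) and from 805, 649 and 471 TPM to 302, 292 and 278 TPM (log2 fold change = -1.22, SE = 0.21, edgeR adjusted P = 0.00205), as Fn1 did, while the leukocyte chains Itgam and Itgb2 rose (log2 4.57 and 4.48).

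Stromal progenitor markers gave no single direction: 7 of 23 rose and 10 fell. Lepr, the leptin receptor, a marker of marrow stromal cells, had 51.4, 36.0 and 21.0 TPM early and 3.402, 2.87 and 2.82 TPM late (log2 fold change = -3.65, SE = 0.33, edgeR adjusted P = 0.000118), whereas Cd34 and Fap rose (log2 2.93, SE 0.38 and log2 3.54, SE 0.21). Of 66 tested transporters and channels, with membrane enzymes, 28 rose and 18 fell (median 0.36). Slc7a5, a large neutral amino acid transporter, had 36.2, 28.5 and 24.3 TPM early and 7.30, 7.08 and 8.32 TPM late (log2 fold change = -2.04, SE = 0.18, edgeR adjusted P = 0.00011), Mme, the endopeptidase neprilysin, had 3.34, 3.66 and 11.1 TPM early and 185, 192 and 176 TPM late (log2 fold change = 4.89, SE = 0.46, edgeR adjusted P = 0.000152) and Fam38a, the older name of the mechanosensitive channel gene Piezo1, had 94.3, 81.3 and 64.6 TPM early and 25.8, 21.9 and 23.9 TPM late (log2 fold change = -1.71, SE = 0.18, edgeR adjusted P = 0.000238).

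**Figure D4:**
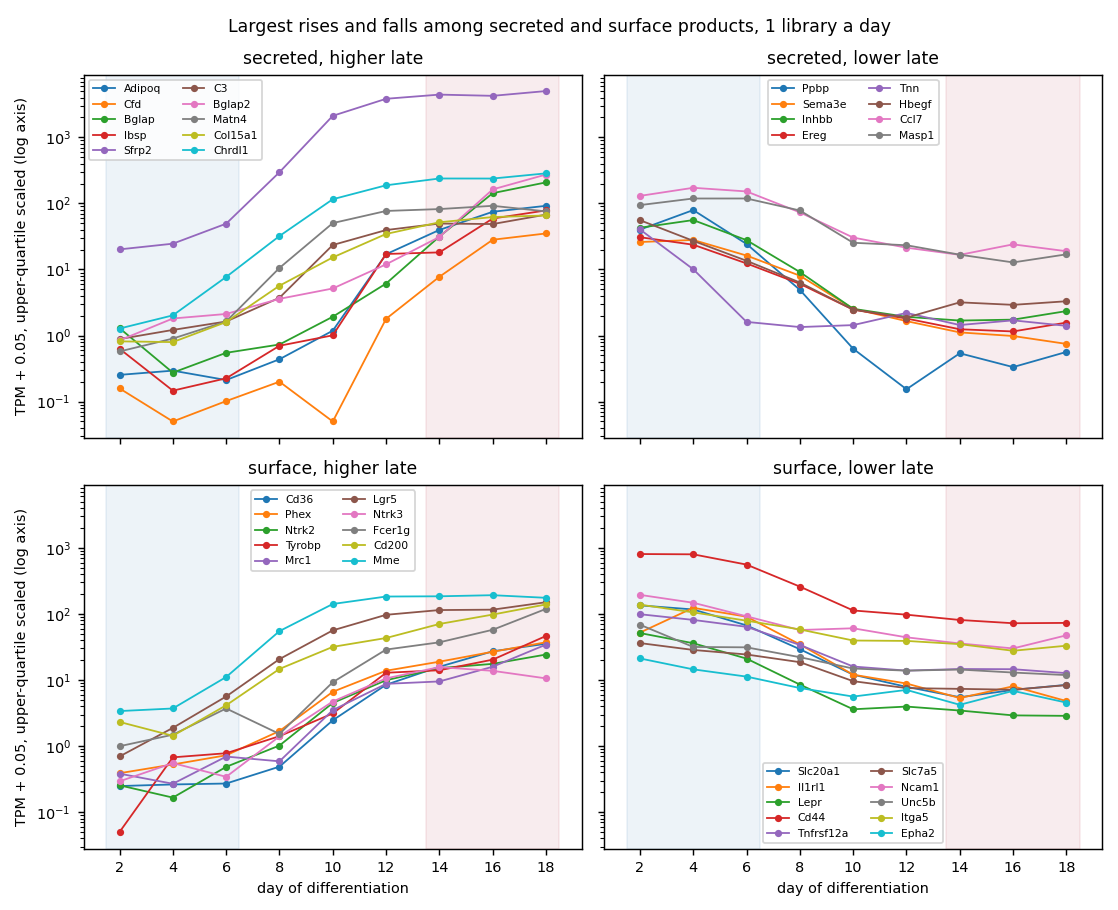
TPM (log axis, 0.05 added) on each of 9 days, 1 library a day, for genes among the 10 largest rises and the 10 largest falls of secreted products (top, 8 of the falls drawn) and surface products (bottom) with at least 10 TPM in the higher group; shaded bands are the early and late days. On this scale most lines make the larger part of their rise or fall between days 6 and 12, and Bglap, Bglap2, Ibsp and Cfd rise last.

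The days between the groups, which did not enter the test, placed most changes before day 12. Mean levels of days 8 to 12 lay between the early and late means for 3616 of the genes that rose (89.8%) and 3246 of those that fell (85.2%), and 347 rising genes were above both and 485 falling genes below both. For the 3764 genes with a change of at least 1 log2 unit, the first day at or past the midpoint between the early and late means, on the log2 scale with 0.5 TPM added, was taken. By day 8, 31.7% of the rises and 38.9% of the falls had passed it, and by day 10, 75.8% and 88.7%. Cell division genes fell together: 18 of 30 mitosis genes passed the midpoint on day 10 and 12 on day 12, and 14 and 8 of 22 DNA replication genes did. All 11 cholesterol synthesis genes passed on day 10.

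Some lists held more of the later rises than others. Among rising collagens, 93.8% of 16 had passed the midpoint by day 10, but of 15 rising osteoblast and mineralization genes 66.7% passed on day 12 or after, as did 66.7% of 15 fatty acid genes and 68.4% of 38 immune receptors, against 24.3% of all rises. Cytokines and hormones, G protein-coupled receptors and the IGF system stood closer to that share, at 35.7%, 34.8% and 33.3%. These shares describe 1 course with 1 library a day. The groups were not steady within themselves either: day 6 was above day 2 for 81.3% of the genes that rose (61.5% of all genes tested) and day 18 above day 14 for 59.0% (47.2% of all genes tested), while among falling genes day 6 was below day 2 for 65.3% and day 18 below day 14 for 62.6%. The falls are to be read against the remainders of 61.5% and 47.2%, the genes tested that were not above.

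**Figure D5:**
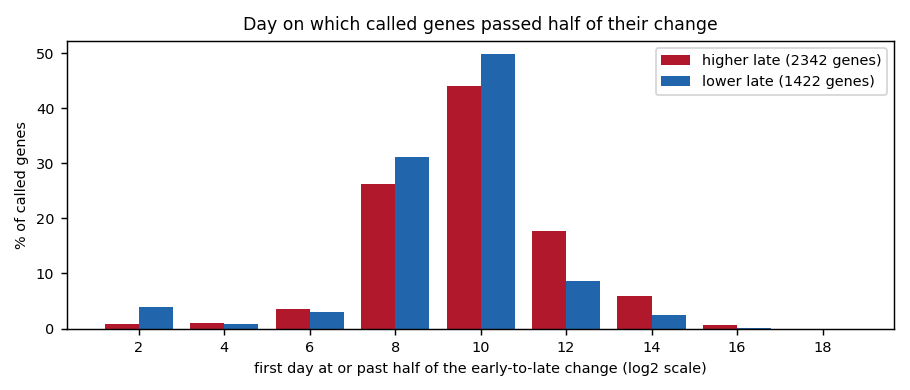
Share of genes (%) that first passed the midpoint between their early and late means on each day, for 2342 genes higher late (red) and 1422 lower late (blue) with a change of at least 1 log2 unit. Day 10 holds the most genes of both kinds, and 24.3% of rises but 11.3% of falls come on day 12 or after.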

How the data were processed

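RNA sequencing profiles of mouse calvarial cells on days 2, 4, 6, 14, 16 and 18 of differentiation were compared. Days 8, 10 and 12 did not enter the main test and served to place changes in time. They entered only the alternative fit with all 9 libraries. Per the labels and the methods of the study, the authors amplified cDNA before library construction, aligned reads to the NCBIM37 transcriptome with Bowtie (0.12.9 in the submitters' processing notes) and quantified genes with RSEM (1.2.8 in these notes). As deposited by the authors, an estimated count is the RSEM expected count of a gene without normalization, and a read that fits several genes is divided between them. Reads shared with near-identical genes and, as no use of strand in counting is stated, reads of antisense partners can therefore blur single genes. The TPM deposited by the authors divide each count by the effective transcript length. The FPKM column was not used. Amplification can change relative levels, and the spread it adds cannot be seen with 1 library a day.

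Estimated counts of the 3 profiles of a day, which share a barcode, were summed and rounded. TPM of each profile were divided by the 75th percentile of values above 0, multiplied by the mean of the 27 percentiles and averaged over the 3 profiles. Library sizes were scaled by upper-quartile factors, genes under a minimum count of 10 were removed by filterByExpr, and late was tested against early by the quasi-likelihood test of edgeR 4.0.16 (R 4.3.3), with P values adjusted after Benjamini and Hochberg to a threshold of 0.05. The fit had 4 residual degrees of freedom and a common dispersion of 0.0493. SE is the absolute log2 fold change divided by the square root of the F statistic. On counts simulated for 14917 genes of the comparison, 45.7% of 81 genes changed by 1 log2 unit and 86.1% of 115 changed by 2 were recovered, and 6.21% of 145 calls were false. Only these genes were changed, and simulated levels did not drift over the days of a group. The shares are therefore not error rates of the comparison itself, in which 51.8% of genes were called. Totals of 42280444 to 50541939 counts give a floor of 3 counts per library, which covers counting error only. Symbols came from GENCODE for NCBIM37 (37205 of 37991 identifiers), and list symbols under older names from synonyms of the GRCm38.p6 gene table (1138 of 1141 found, 1126 directly). Promoters and motif positions were read from the RefSeq table for GRCm38.p6, over 32851 promoters. Besides the motifs in the text, an E2F form, a nuclear receptor form and the cyclic AMP element were searched on both strands. The E2F form TTTCCCGC was found in 9.68% of replication promoters and in none of the mitosis promoters (1.83% of those of genes tested), the nuclear receptor form TGACCTTTG in none of the 6 adipocyte promoters (0.341%) and the cyclic AMP element TGACGTCA in 7.14% of mitosis promoters (2.93%).

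Genes named were the 10 largest rises and falls with at least 10 TPM in the higher group and no overlap, the 5 of highest level called each way, the 10 largest rises and falls among secreted and among surface lists at that level, and, within each list, members of highest level and those that carry the role of the list. Some genes that meet these rules are not reported here. The comparison, the gene lists and the tests were chosen with earlier results of these data known. Alternatives were TMM factors, library totals only, DESeq2 1.42.0, other filters, all 9 libraries, 18 separate profiles with and without a replicate block, profiles and days left out, mitochondrial genes left out, stricter thresholds and limma 3.58.1 on log2(TPM + 1). Tables were handled with Python 3.11.15.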

Additional observations from a re-analysis of the deposited data

How the results depend on the processing

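Called genes numbered 7840. They were 7868 with TMM factors, 7916 with library totals only, 8058 with DESeq2, 7787 with every gene of at least 1 count, 7262 with a minimum count of 50, 8000 with all 9 libraries, 6571 with limma and 5325 at an adjusted P under 0.01. Without 1 lane profile of each day they were 7565 to 7608, and without 1 day 6365 (day 4) to 8129 (day 6). Where the fold had to exceed 1.5, 3661 genes were called, 2167 higher and 1494 lower, and 41 surface genes were lower. Calls shared with these settings had the same direction, except 1 of 6181 with limma. Of 1404 values for 67 genes that met the naming rules, 1392 kept their side of the threshold and 12 lost it, with none reversed. These genes were chosen among the calls for large changes or high levels, so this share does not extend to all 7840 calls. Of those, 79.3% were also made without day 4. Among single markers, Sp7 ran from -1.39 to 0.86 (log2) and Oscar from -1.09 to 0.94 when 1 day was left out, and both reversed in sign (Sp7 without day 2, Oscar without day 2, at -0.29, day 6, at -0.02, or day 14); the cause was not tested.

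With 18 profiles as separate samples, 10387 genes were called without the replicate block and 10226 with it. The replicate number did not pair samples across days: deviations from the mean of each day correlated by 0.00252 on average between profiles of the same number and by -0.00126 between others, and the numbers coincide with lanes. These fits treat lanes of 1 library as samples. Depth limits genes near the floor of 3 counts per library, and having 1 library a day limits every P value here.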
